A study of Homo sapiens with 24 samples.

Results

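SKMEL28 cells that had been exposed to vemurafenib for 1 h were compared with untreated SKMEL28 cells across 13699 genes. The samples were chosen by their titles, which name the line, the time and the replicate: 3 arrays at 1 h and 3 arrays at 0 h, 6 of the 24 arrays of the series. SKMEL28 is a melanoma cell line, and per the labels it carries the BRAFV600E mutation. The treated cells received 2 µM vemurafenib for 1 h, and the 0 h cells were labelled untreated. The whole study measured total RNA on Illumina bead arrays in SKMEL28 and in SW1736, a thyroid carcinoma line labelled with the same mutation, each at 0, 1, 6 and 48 h of the drug with 3 arrays a group (the design text spells the second line SW1726). The 6 h and 48 h groups of SKMEL28 and the 0 h and 1 h groups of SW1736 are used below for comparison. Both lines are BRAF mutant, so no group carries wild-type BRAF alone. The untreated arrays stand only at 0 h and no vehicle is named, so the drug and 1 h of handling cannot be told apart. The labels do not tell whether a group's 3 arrays are 3 cultures or 1, so each p-value below is set against a spread that may be only technical, and the number of arrays limits the precision. In bulk RNA, fewer cells holding a transcript and less of it per cell cannot be told apart.

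BRAF is a kinase that activates MEK, which activates ERK, and the V600E change makes BRAF signal without RAS. Active ERK induces transcription factors such as FOS, EGR1 and MYC, and also the proteins that hold the pathway back, among them the Sprouty proteins and the dual specificity phosphatase DUSP6. Vemurafenib inhibits mutant BRAF and so lowers ERK activity in such cells. Many transcripts of these early genes and feedback inhibitors are known to be short-lived, so their level can follow a loss of transcription quickly.

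The 6 arrays were alike. Between 19309 and 19739 of 47231 probes, 40.9% to 41.8%, were detected at a detection p under 0.05, and the median raw signals ran from 101.4 to 127.7. The lowest correlation between replicates was 0.9889, across the normalized log2 levels of the 13699 genes. Melanocyte markers matched the label: all 9 with a probe were detected on all 6 arrays, and their median log2 change at 1 h was -0.04, with MLANA, the melanoma antigen MART-1, at -0.04 and the pigment enzyme gene TYR at -0.10. Of 5 thyroid markers with a probe, 0 were detected on all 6 arrays, and TG, NKX2-1 and FOXE1 were detected on none. Epithelial, fibroblast and leukocyte markers had 1 gene each on all 6 arrays (KRT18, LUM and CD68), and the endothelial markers had 0 of 4.

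After 1 h, 24 of 13699 genes differed at a Benjamini-Hochberg adjusted p under 0.05 in limma's moderated test, 0.175% of the genes tested. Of these, 19 were lower (0.139%) and 5 were higher (0.0365%) in treated cells. The lower genes were feedback inhibitors of ERK signalling (SPRY2, SPRY1, SPRY4, DUSP6 and PHLDA1) and the ERK substrate gene IER3. Transcription factors and cofactors were also lower (FOS, EGR1, MYC, HES1, HEY1, TGIF1 and ZNF503). The remaining lower genes were the microRNA gene MIR221, and PDE4B, SLC2A3, DDIT4, RGS1 and CCDC144A. The higher genes were ID2, EFNA1, CITED2, NFKBIA and WDR72. In all 24 the 3 treated arrays lay on one side of the 3 untreated arrays without overlap, a separation that 6.06% of the genes tested showed in the lower and 5.92% in the higher direction. The change was at least 1 on the log2 scale, a doubling or halving, in 12 lower and 2 higher genes. The median change of all genes was 0.00 and the central 90% lay between -0.32 and 0.30. At an unadjusted p under 0.05 there were 396 of the 13699 genes, 236 lower and 160 higher. That is a share below 0.05, which such a threshold passes when no gene changes. The 396 are therefore no sign of a wider response.

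**Figure D1:**
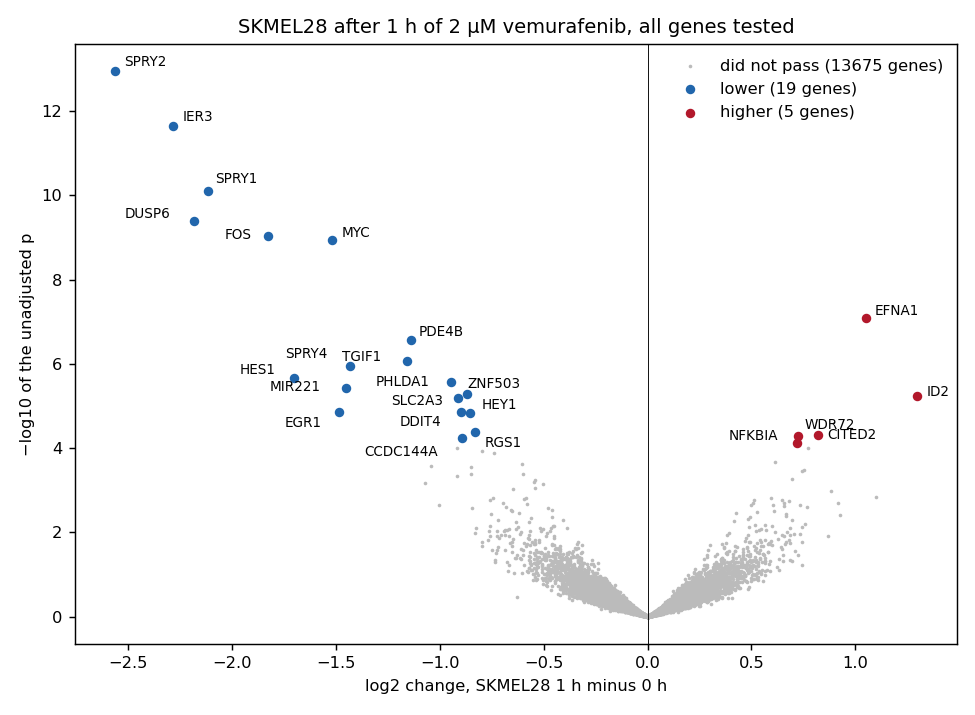
Each point is 1 of 13699 genes, with the log2 change from 0 h to 1 h on the x axis and -log10 of limma's unadjusted p on the y axis. The 19 genes that fell and the 5 that rose at an adjusted p under 0.05 are coloured and named, and the strongest are SPRY2, IER3, SPRY1 and DUSP6 on the lower side.

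The largest falls were in SPRY2, IER3, DUSP6 and SPRY1. Of 16 measured genes in a list of 17 ERK feedback inhibitors, in which IER3 was counted, 6 fell and 0 rose. Over all genes 0.139% fell and 0.0365% rose. The list's median change was -0.42 against 0.00 over all genes. This list and those named below were written with earlier results of these data known. Their counts and medians describe them and are no independent test. SPRY2, a Sprouty protein that blocks receptor signalling to RAS and RAF, had log2 levels of 11.04, 11.01 and 11.01 on the untreated arrays and of 8.52, 8.32 and 8.54 on the treated arrays. SPRY1, its close relative, stood at 10.77, 10.81 and 10.86 before and at 8.69, 8.70 and 8.71 after 1 h. The replicates of both genes lay far closer to each other than the groups did. SPRY2 fell by 2.56 ± 0.16 (log2, ± SE, 5.91-fold, adjusted p = 1.54e-09) and SPRY1 fell by 2.12 ± 0.18 (4.33-fold, adjusted p = 3.52e-07). SPRY4 was at 9.42, 9.43 and 9.53 untreated and at 8.01, 7.93 and 8.14 treated. It fell by 1.43 ± 0.22, or 2.69-fold (adjusted p = 0.00151), and a second SPRY4 probe detected on all 6 arrays read -1.21 (adjusted p = 0.0591 when probes were tested singly). With the mean of a gene's probes SPRY4 read -0.82 and SPRY1 read -1.47, and both passed. A second SPRY1 probe gave -2.05 and one more, detected on 1 of 6 arrays, gave -0.24.

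DUSP6, the cytoplasmic phosphatase that takes the activating phosphates off ERK, read 9.86, 9.61 and 9.95 in untreated cells and 7.99, 7.55 and 7.32 in treated cells. The treated arrays spread more widely than those of the Sprouty genes, but the groups stood apart. The fall was 4.55-fold (log2 -2.19 ± 0.21, adjusted p = 1.42e-06), and the other DUSP6 probe gave -2.03. IER3, an immediate early gene whose product is an ERK substrate, went from 11.66, 11.58 and 11.73 to 9.30, 9.34 and 9.48, which is 4.87-fold lower (log2 -2.28 ± 0.17, adjusted p = 1.55e-08). PHLDA1, a pleckstrin homology-like protein induced by ERK signalling, moved less, from 11.98, 11.67 and 11.89 to 11.06, 10.78 and 10.87. Its lowest untreated array was still above its highest treated array, and it fell by 0.94 ± 0.15 (1.92-fold, adjusted p = 0.00311). A second PHLDA1 probe, detected on all 6 arrays, showed -0.13, and the call was lost with the mean of both probes (-0.54, adjusted p = 0.209), with median scaling in place of quantile normalization (-0.92, adjusted p = 0.164), with the 6 arrays fitted on their own (adjusted p = 0.0576), and without untreated replicate 1 (-0.88, adjusted p = 0.0502).

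**Figure D2:**
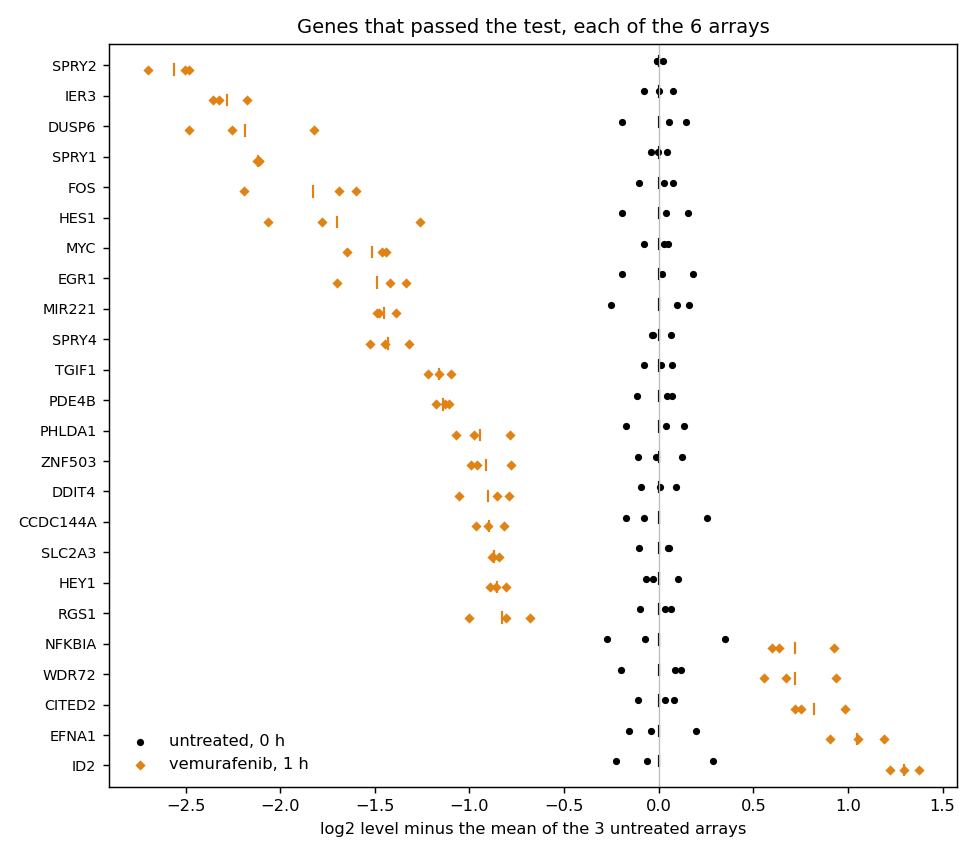
Each of the 24 genes that passed at 1 h has 3 black points (untreated arrays) and 3 orange diamonds (1 h arrays), with the log2 level minus the mean of the 3 untreated arrays on the x axis and bars at the group means. In each gene the diamonds lie on one side of the black points; the nearest approach is in NFKBIA, and MIR221 and CCDC144A were not detected on the 1 h arrays and are drawn at their measured signal.

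Other members of the same families did not pass at 1 h. SPRED1 and SPRED2, Sprouty-related inhibitors of RAS activation, changed by 0.01 ± 0.17 (95% interval -0.33 to 0.36) and -0.00 ± 0.14 (-0.29 to 0.28), so falls as large as those of the Sprouty genes lie outside their intervals. The nuclear phosphatases of ERK gave wider intervals: DUSP4 read -0.48 ± 0.36 (-1.22 to 0.25) and DUSP5 read -0.50 ± 0.20 (-0.92 to -0.07). Of 7 other MAP kinase phosphatases, whose targets include JNK and p38, 0 passed, with changes from -0.37 to -0.01.

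Early transcription factors formed the next group. FOS, a subunit of the AP-1 factor, was at 7.55, 7.42 and 7.60 in untreated cells and at 5.83, 5.92 and 5.33 in treated cells. It fell 3.55-fold (log2 -1.83 ± 0.18, adjusted p = 2.48e-06), with every treated array more than 1 log2 unit under every untreated one. Without background correction FOS read -0.87, still past the test. FOS was the only one of 10 measured AP-1 genes to pass, where 0.139% of all genes fell, and the list's median was -0.39. FOSL1, an AP-1 subunit known as a target of sustained ERK activity, had a change of -1.07 ± 0.27 (adjusted p = 0.229). Its arrays read 9.13, 8.98 and 8.96 untreated and 7.91, 7.99 and 7.96 treated, without overlap. The SE takes in the spread of all groups, among which SKMEL28 at 48 h had a replicate SD of 0.98. With the SKMEL28 arrays fitted without SW1736 the adjusted p was 0.56. JUN, the partner of FOS, had -0.72 ± 0.25.

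MYC, a transcription factor that drives growth genes, had levels of 11.29, 11.16 and 11.27 at 0 h and of 9.78, 9.59 and 9.80 at 1 h. The groups were far apart, and MYC fell 2.86-fold (log2 -1.52 ± 0.15, adjusted p = 2.67e-06). A second MYC probe gave -1.41. Of 11 measured genes of the MYC network, MYC alone passed and the median was 0.00, where 0.139% of all genes fell. The partner of MYC, MAX, read -0.21.

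EGR1, a zinc finger factor that is a standard early target of ERK, was at 8.59, 8.38 and 8.75 untreated and at 7.15, 7.23 and 6.87 treated. The arrays did not overlap and the fall was 2.80-fold (log2 -1.49 ± 0.27, adjusted p = 0.0103). The call was lost in 4 of the 6 fits that left out 1 array: without untreated replicate 1 (adjusted p = 0.071) or 3 (0.0957), and without treated replicate 1 (0.0503) or 3 (0.0966), with the change between -1.52 and -1.38. EGR1 was the only one of 14 measured EGR, IER, KLF and NR4A genes to pass, where 0.139% of all genes fell. The list's median was -0.34. IER5L, at -1.01, did not pass (adjusted p = 0.49). The EGR1 promoter is shown because ERK is known to act on it through serum response factor, which binds CArG boxes. The 300 bases from 250 before to 50 after the start (RefSeq, GRCh38.p14, chr5:138465229-138465528, plus strand) hold 2 such boxes, in capitals, at 105 and 83 bases before the start.
EGR1 promoter: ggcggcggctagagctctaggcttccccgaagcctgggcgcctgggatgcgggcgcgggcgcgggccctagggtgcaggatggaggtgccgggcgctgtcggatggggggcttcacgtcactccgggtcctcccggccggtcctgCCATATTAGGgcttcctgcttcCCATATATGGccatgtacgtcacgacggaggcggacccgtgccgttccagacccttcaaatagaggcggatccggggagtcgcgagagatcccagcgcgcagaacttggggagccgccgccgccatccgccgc

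HES1 and HEY1, repressors of the hairy and enhancer of split family that Notch signalling induces, also fell. HES1 went from 8.31, 7.96 and 8.19 to 6.38, 6.09 and 6.89. It was the most variable of the large falls on the treated arrays, yet its highest treated value was more than 1 log2 unit under its lowest untreated value. The change was 3.25-fold (log2 -1.70 ± 0.27, adjusted p = 0.00265), and -1.0 without background correction. HEY1 moved from 10.99, 11.12 and 10.96 to 10.17, 10.22 and 10.13, a fall of 1.81-fold (log2 -0.85 ± 0.15, adjusted p = 0.0103). Within each HEY1 group the arrays differed by less than 0.2 log2 units. It did not pass with median scaling (adjusted p = 0.0829), with the mean of its probes (-0.72, adjusted p = 0.0917), and without untreated replicate 1 (adjusted p = 0.0648) or 2 (0.0825) or treated replicate 1 (0.0643) or 3 (0.083). A second HEY1 probe read -0.59. HES1 and HEY1 were 2 of 12 measured Notch receptors, ligands and targets, where 0.139% of all genes fell. The list was written with earlier results known, so the count is no result about Notch genes. The median of the 12 was -0.05, and HEY2 read 0.51 (adjusted p = 0.443). The HES1 promoter is shown for RBPJ, the DNA-binding factor of Notch signalling, whose core TGGGAA occurs in it at 84 and 70 bases before the start, in capitals (RefSeq, GRCh38.p14, chr3:194135898-194136197, plus strand).
HES1 promoter: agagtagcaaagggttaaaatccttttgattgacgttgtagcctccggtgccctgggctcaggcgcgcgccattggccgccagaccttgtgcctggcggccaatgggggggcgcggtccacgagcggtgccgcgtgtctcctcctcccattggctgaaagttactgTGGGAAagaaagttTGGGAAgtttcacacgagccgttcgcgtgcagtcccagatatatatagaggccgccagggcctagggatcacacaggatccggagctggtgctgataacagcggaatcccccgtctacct

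Promoter entries were found for 14 of the 19 lower genes, with 29 promoters in all. A CArG box was found in 1 of the 29 (3.45%, EGR1) against 1.29% of 35116 promoters of the same length. The ETS core CCGGAA was in 7 (24.1%, against 17.2% of all; PDE4B, PHLDA1, SPRY1, SPRY2 and TGIF1). The RBPJ core was in 8 (27.6%, against 24%), the AP-1 site TGANTCA in 3 (10.3%, against 7.71%; TGIF1), and the cyclic AMP element TGACGTCA in 0 (against 1.85%). All were searched on both strands, no motif contains another, and the entries of 1 gene can overlap. The 5 higher genes had 7 promoters, of which 1 held the ETS core (CITED2), 1 held the RBPJ core (EFNA1) and 0 held the others. The counts describe letters in these windows only.

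TGIF1, a homeodomain corepressor of TGF-beta and SMAD signalling, fell from 9.70, 9.61 and 9.76 to 8.53, 8.47 and 8.59. The arrays of each group lay within 0.2 log2 units of each other, and the fall was 2.23-fold (log2 -1.16 ± 0.17, adjusted p = 0.00131). A second TGIF1 probe detected on all 6 arrays gave -1.13, and another, detected on 3 of 6, gave -0.21. With the mean of its probes TGIF1 read -0.63 and passed. ZNF503, a zinc finger repressor, was at 10.00, 9.87 and 9.77 and then at 8.92, 9.10 and 8.89, a fall of 1.88-fold (log2 -0.91 ± 0.16, adjusted p = 0.00564). ZNF503 did not pass with median scaling (adjusted p = 0.166), nor without untreated replicate 1 (0.071), treated replicate 1 (0.0503) or treated replicate 3 (0.0557). SMAD7, the inhibitory SMAD, read -1.04 ± 0.24 and did not pass (adjusted p = 0.12). Its second probe, detected on all 3 untreated arrays and on 0 treated ones, gave -1.28 (adjusted p = 0.0317 with probes tested singly).

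MIR221 was the only noncoding gene among the 24, and its mature product is shown with that of MIR222, the neighbouring gene on the X chromosome, because both carry the same seed (bases 2 to 8, in capitals). The sequences are RefSeq's on GRCh38.p14: miR-221-3p at chrX:45746180-45746202 and miR-222-3p at chrX:45747036-45747056, both on the minus strand. MIR222 was not among the genes tested.
hsa-miR-221-3p: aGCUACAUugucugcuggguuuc
hsa-miR-222-3p: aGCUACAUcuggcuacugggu

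The MIR221 probe was detected on all 3 untreated arrays, at 6.24, 6.18 and 5.83, and on 0 of the 3 treated arrays, at 4.60, 4.59 and 4.69. All treated values lay more than 1 log2 unit under the lowest untreated value. Since the treated level has only an upper bound, MIR221 was at least 1.76-fold lower (adjusted p = 0.00391). Bounds of this kind set the bright group's mean against the lowest signal called detected on each array of the other group. The bound holds on the background-corrected scale: without background correction the measured change was -0.57. Without untreated replicate 1 the adjusted p was 0.0502. A probe for a microRNA gene on this kind of array reads the longer primary transcript or its fragments and not the mature microRNA. Of 4 measured genes in a list of microRNA genes and microRNA host genes, MIR221 alone passed.

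The remaining lower genes act in several processes. PDE4B, an enzyme that breaks down cyclic AMP, was at 10.14, 9.96 and 10.12 untreated and at 8.96, 8.90 and 8.94 treated. It fell 2.20-fold (log2 -1.14 ± 0.16, adjusted p = 0.000456), with treated arrays within 0.1 log2 units of each other. PDE4B was the only one of 9 measured cyclic AMP phosphodiesterases to pass, where 0.139% of all genes fell. A second PDE4B probe read -0.98 but did not pass singly (adjusted p = 0.973). SLC2A3, the glucose transporter GLUT3, went from 10.06, 10.06 and 9.90 to 9.13, 9.16 and 9.12. Its fall of 1.83-fold (log2 -0.87 ± 0.15, adjusted p = 0.00521) was the only call among 17 measured genes of glucose uptake and glycolysis. Over all genes 0.139% fell. The median of the 17 was -0.02, with SLC2A1 at 0.00. SLC2A3 did not pass with median scaling (adjusted p = 0.122) or without untreated replicate 1 (0.0528).

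DDIT4, a stress-induced inhibitor of the growth kinase complex mTORC1, read 10.31, 10.13 and 10.23 and then 9.37, 9.17 and 9.43. The groups stood apart and the fall was 1.87-fold (log2 -0.90 ± 0.16, adjusted p = 0.0103), but the call was lost with median scaling (0.122) and in 4 of the 6 fits without 1 array: untreated replicate 1 (0.0962) or 3 (0.0654), treated replicate 1 (0.0503) or 2 (0.11). RGS1, which speeds the shut-off of G proteins, read 8.74, 8.87 and 8.91 and then 8.16, 8.03 and 7.84, or 1.78-fold lower (log2 -0.83 ± 0.16, adjusted p = 0.0289). Leaving out any 1 of the 6 arrays ended the RGS1 call, at adjusted p-values of 0.0521 to 0.227, as did median scaling (0.166), the 6 arrays on their own (0.0711) and a trended and robust prior (0.0752). The CCDC144A probe was detected on all 3 untreated arrays (5.79, 5.70 and 6.12) and on 0 treated ones (5.05, 4.90 and 4.97), so that it was at least 1.52-fold lower (adjusted p = 0.0349). The gene has near-identical copies on chromosome 17 which the probe may also read, and its call was lost without any 1 of the 6 arrays (adjusted p 0.0574 to 0.345) and without background correction (-0.31, adjusted p = 0.914), with the authors' values (-0.34, 0.903), median scaling (0.0678), the 6 arrays on their own (0.0931) or a trended and robust prior (0.114).

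Among the 5 higher genes, ID2 and EFNA1 rose most. ID2, which binds and blocks basic helix-loop-helix factors, went from 8.60, 8.96 and 8.44 to 9.89, 9.97 and 10.04. Its untreated arrays spread over about 0.5 log2 units and its treated arrays over less, with no overlap. It rose 2.46-fold (log2 1.30 ± 0.22, adjusted p = 0.00521), and a second probe gave 1.18 (adjusted p = 0.18 with probes tested singly). The ID2 call was lost without untreated replicate 1 (1.27, adjusted p = 0.0514) or 3 (1.19, adjusted p = 0.0654). Its relatives did not move with it: ID1 read -0.17 ± 0.20 and ID3 read -0.29 ± 0.17, and ID2 was the only call among 14 measured ID and BMP feedback genes.

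EFNA1, a ligand of EphA receptors, read 6.05, 5.82 and 5.70 at 0 h and 6.76, 6.91 and 7.05 at 1 h. It rose 2.07-fold (log2 1.05 ± 0.13, adjusted p = 0.000161). EFNA1 was the only one of 10 measured Eph receptors and ephrins to pass, where 0.0365% of all genes rose. The list median was 0.11. The rise kept its call without any 1 array, but it was 0.46 without background correction and 0.60 with the mean of its probes (adjusted p = 0.123), and the second probe was detected on 0 of 6 arrays. CITED2, which competes with hypoxia-inducible factors for the coactivators CBP and p300, read 8.77, 8.96 and 8.92 and then 9.87, 9.60 and 9.64 (1.76-fold higher, log2 0.82 ± 0.16, adjusted p = 0.0317). It was the only one of 17 FOXO and PI3K feedback genes to pass, and leaving out any 1 of the 6 arrays gave adjusted p-values of 0.079 to 0.232, median scaling 0.207 and the 6 arrays on their own 0.0703.

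NFKBIA, which holds NF-kappaB in the cytoplasm, went from 7.85, 8.48 and 8.05 to 8.76, 9.05 and 8.72 (log2 0.72 ± 0.15, 1.65-fold, adjusted p = 0.0442). The nearest arrays of its groups were only about 0.2 log2 units apart. The call was lost with SKMEL28 fitted alone (adjusted p = 0.13), with median scaling (0.208), with the 6 arrays on their own (0.409), and in 5 of the 6 fits without 1 array, all but that without untreated replicate 2 (0.58 to 0.78, adjusted p 0.0915 to 0.5). WDR72, a WD-repeat protein known for its part in enamel formation, read 5.63, 5.60 and 5.31 and then 6.45, 6.18 and 6.07 (log2 0.72 ± 0.14, adjusted p = 0.0317). Its call was lost with SKMEL28 fitted alone (adjusted p = 0.127), without background correction (0.26, adjusted p = 1), with the authors' values (0.29, adjusted p = 1), with median scaling (adjusted p = 0.25), with a trended and robust prior (0.33), with the 6 arrays on their own (0.24), and in 5 of the 6 fits without 1 array, all but that without treated replicate 3 (0.61 to 0.78, adjusted p 0.0761 to 0.345).

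Of the 24 genes, 18 belong to at least 1 of 22 gene lists. The lists hold 331 entries, measured or not, beside 13699 genes tested. They were written with earlier results of these data known, so the 18 is not a result about the response. Several lists around the pathway held no call, which at 0.175% of all genes called says little about lists of this size, so their values are given. The 12 measured PEA3 and other ETS factors had 0 calls and a median of 0.01; ETV4 and ETV5, known ERK-responsive factors, read -0.09 ± 0.21 (95% interval -0.53 to 0.35) and 0.04 ± 0.14 (-0.26 to 0.34). The RAF, MEK and ERK cascade genes had 0 calls among 13 and changes from -0.32 to 0.32. CCND1, the cyclin that couples growth signals to the cell cycle, read -0.08 ± 0.16 (-0.42 to 0.25), and 0 of 13 cyclins and CDK inhibitors passed. Among 13 ERBB receptors and regulators, 0 passed. ERBB3, the receptor HER3 named in the title of the study, read -0.12 ± 0.18 (-0.50 to 0.26), and its other probes -0.09 and 0.26; ERBB2 read -0.01 ± 0.17, and EGFR was detected on 1 of the 6 arrays. The corepressors CTBP1 and CTBP2 read 0.16 ± 0.12 and -0.34 ± 0.20, but other probes detected on all 6 arrays gave -0.47 and -0.05 for CTBP1 and -0.41 for CTBP2. The ligand gene HBEGF had the lowest value of that list, -0.60. The 17 MITF and pigment genes, 14 BCL2 family genes, 10 mRNA decay factors, 12 YAP and TEAD targets and 10 Wnt feedback genes each had 0 calls; MITF, the melanocyte master regulator, read 0.25 ± 0.21.

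**Figure D3:**
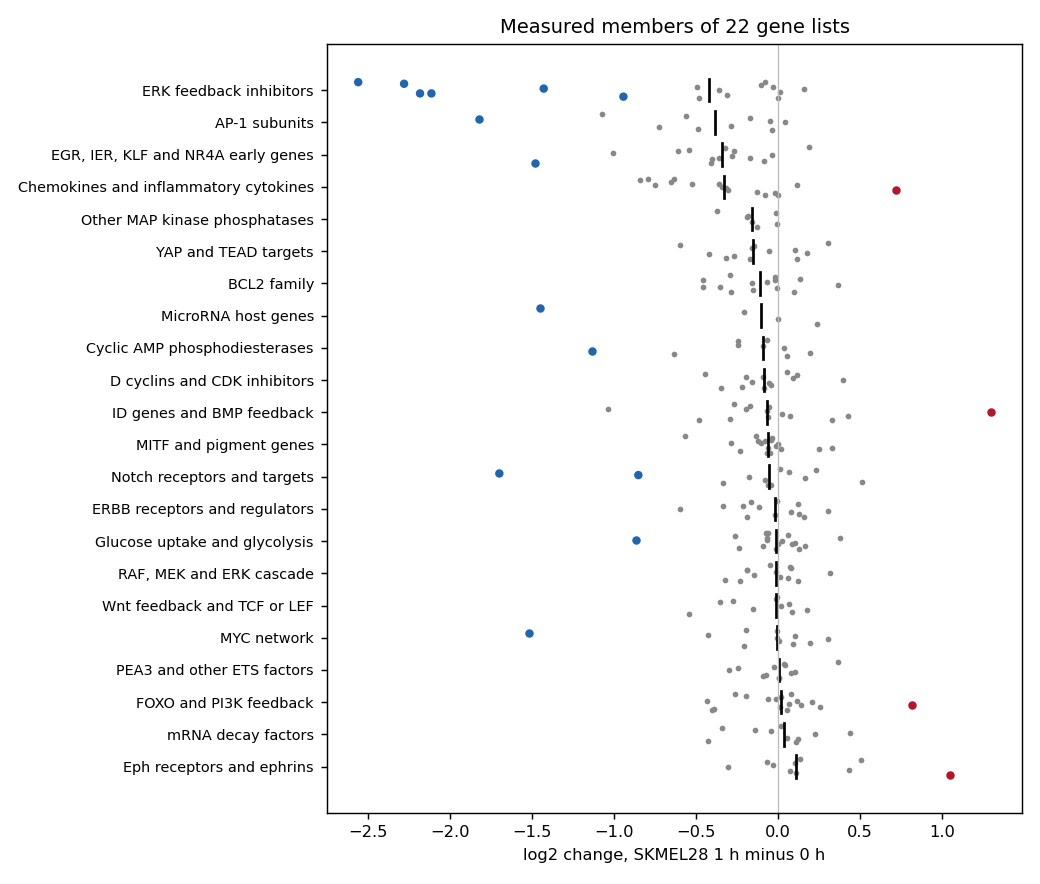
Log2 change at 1 h (x axis) of every measured member of each of the 22 gene lists (y axis, ordered by median), 1 point a gene, spread vertically only to part the points; genes that fell are blue, genes that rose are red, and black bars are medians. The ERK feedback inhibitor list, in which IER3 was counted, has the lowest median, -0.42, and 6 blue points. The lists were written with earlier results of these data known.

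With the 12 SKMEL28 arrays fitted without SW1736, whose replicates spread more (median SD 0.28 against 0.18), 34 genes passed (0.248% of those tested; 28 lower, 0.204%, and 6 higher, 0.0438%), 22 of them among the 24. Of the 12 further genes, the 9 lower ones were SMAD7 (-1.04, adjusted p = 0.0297 in that fit), the chemokine gene CXCL8 (-0.84, 0.0361), the NF-kappaB cofactor gene NFKBIZ (-0.79, 0.00201), the matrix protein gene CCN2 (-0.60, 0.0206), the kinase genes RIPK4 (-0.59, 0.00636) and SGK1 (-0.58, 0.0425), the Wnt feedback gene AXIN2 (-0.54, 0.0361), and the transcription factor genes KLF6 (-0.54, 0.015) and BHLHE40 (-0.50, 0.0361). The 3 higher ones were MYLIP, a ubiquitin ligase that degrades the LDL receptor (0.66, 0.00598), the transcription factor gene SOX4 (0.60, 0.0425) and HAS2, a hyaluronan synthase (0.50, 0.0425). In the fit of all 24 arrays 0 of these 12 passed. Other probes detected on all 6 arrays read -0.49 for CXCL8, -0.32 for CCN2, and -0.70 and -0.59 for SGK1. None of these probes passed when tested singly. A second HAS2 probe, detected on 3 of the 6 arrays, read -0.20. Among 16 chemokine, cytokine and NF-kappaB genes, several of them undetected in these cells, NFKBIA alone passed with all 24 arrays, and TNFAIP3, another brake on NF-kappaB, read -0.75 (adjusted p = 0.649).

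The later SKMEL28 arrays give the further course of these genes. The changes from 0 h share the untreated arrays with the 1 h comparison, and the 6 h minus 1 h changes share the 1 h arrays by which the genes were chosen, so the values are set side by side only. At 6 h 6.85% and at 48 h 38.9% of all genes passed against 0 h, and 5.81% passed between 1 h and 6 h. SPRY2 stood at -2.56 at 1 h, -5.40 at 6 h and -2.30 at 48 h relative to 0 h, and the step from 1 h to 6 h was -2.84 ± 0.16 (adjusted p = 9.22e-11). SPRY1 read -2.12, -3.59 and -1.54, IER3 read -2.28, -3.17 and -1.26, and MYC read -1.52, -2.34 and -0.84. In these 4 genes the mean level was lowest at 6 h. EGR1 (-1.49, -2.66 and -2.24), HEY1 (-0.85, -2.31 and -1.67), SLC2A3 (-0.87, -2.51 and -0.64) and PHLDA1 (-0.94, -1.45 and -0.50) were also lowest at 6 h, with EGR1 and HEY1 still under their 1 h means at 48 h. DUSP6 was detected by neither probe at 6 h, which puts it at least 22.4-fold under 0 h and at least 4.92-fold under 1 h, and it read -4.31 at 48 h. SPRY4 was also undetected at 6 h, at least 17.6-fold under 0 h and at least 6.53-fold under 1 h, and read -3.33 at 48 h.

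For other genes the step from 1 h to 6 h did not pass. HES1 read -1.70 at 1 h and -1.92 at 6 h, a step of -0.21 ± 0.27 (adjusted p = 0.804). TGIF1 (-1.16 and -1.41), PDE4B (-1.14 and -1.21) and ZNF503 (-0.91 and -0.95) gave steps of -0.25 (adjusted p = 0.54), -0.08 (0.896) and -0.04 (0.955). FOS gave a step of -0.44 ± 0.18, whose interval for the gene taken alone (-0.82 to -0.07) lies below 0 while the adjusted p was 0.194, and it was detected on none of the 48 h arrays, at least 4.73-fold under 0 h. DDIT4 and CITED2 turned back: from -0.90 at 1 h DDIT4 came to -0.31 ± 0.16 at 6 h (adjusted p = 0.358), a step of 0.59 ± 0.16 (adjusted p = 0.028), and from 0.82 CITED2 came to 0.21 ± 0.16 (adjusted p = 0.599), a step of -0.61 ± 0.16 (adjusted p = 0.025). Both genes were chosen for an extreme value at 1 h, and a return toward 0 is favoured by that choice. ZNF503 was at 0.07 ± 0.16 at 48 h. RGS1 read -0.83 at 1 h and 2.26 ± 0.16 at 48 h (adjusted p = 1.02e-10). EFNA1 read 1.05, 1.75 and 2.20 and ID2 read 1.30, 2.64 and 2.76 at 1 h, 6 h and 48 h. NFKBIA stayed close to its 1 h value (0.72, 0.62 and 0.75), and WDR72 read 0.72, 1.10 and 0.24. MIR221 was detected on 1 of 3 arrays at 6 h and on none at 48 h, at least 1.74-fold under 0 h.

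**Figure D4:**
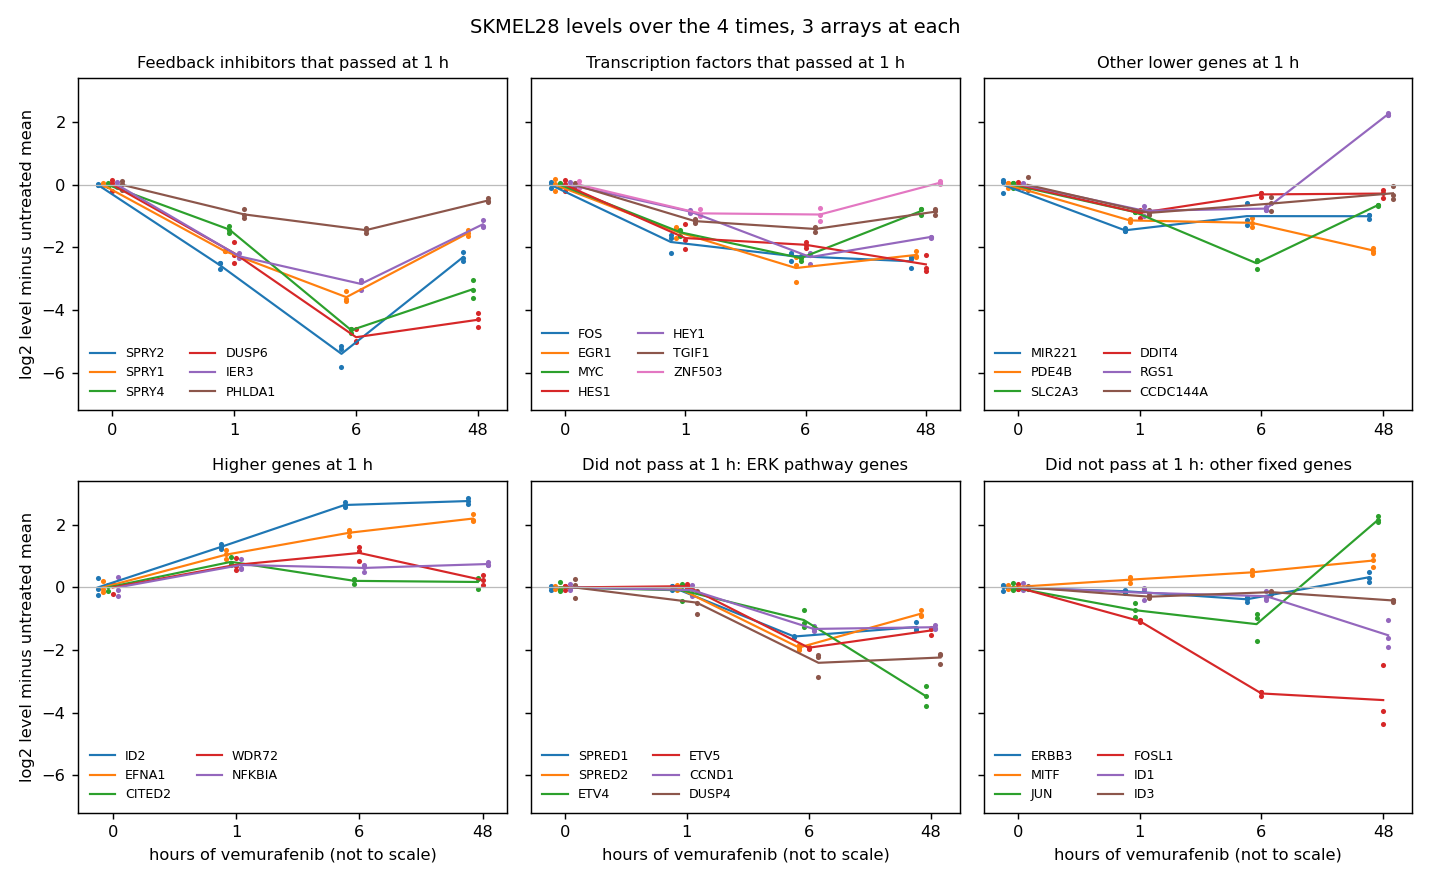
The y axis is the log2 level in SKMEL28 minus the untreated mean, the x axis the hours of vemurafenib (evenly spaced, not to scale), with 1 point per array and lines through the means of 3 arrays, in 6 panels by role and by result at 1 h. SPRY2 goes from -2.56 to -5.40 and back to -2.30, CITED2 and DDIT4 lie nearer 0 at 6 h than at 1 h, and SPRED2 is at -0.00 at 1 h and -1.92 at 6 h; genes that were not detected at a time are drawn at their measured signal.

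Genes of the same families that had not passed at 1 h were lower at 6 h. SPRED1 read -1.57 (adjusted p = 5.7e-07) and SPRED2 read -1.92 (9.03e-10) against 0 h, ETV5 read -1.93 (1.8e-09), ETV4 -1.04 (0.00205), CCND1 -1.32 (4.69e-06), DUSP4 -2.41 (5.76e-05) and DUSP5 -1.05 (0.00128). For SPRED1 the step from 1 h to 6 h was -1.58 (adjusted p = 7.21e-07). At 6 h 4.22% of all genes were lower. Of the 16 measured members of the ERK feedback inhibitor list 11 were lower, and these include the 6 that had passed at 1 h. Among the 12 ETS factors 4 were lower. ERBB3 read 0.32 at 48 h and did not pass (adjusted p = 0.181).

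SW1736, which has untreated arrays of its own, gave 29 called genes at 1 h (0.212% of those tested), of which 24 were lower (0.175%) and 5 higher (0.0365%). The lower lists of the lines shared 10 genes, 52.6% of the 19 in SKMEL28 and 41.7% of the 24 in SW1736. These were the feedback genes SPRY1, SPRY2, SPRY4, DUSP6 and PHLDA1, and also IER3, MYC, PDE4B, SLC2A3 and MIR221. The higher lists shared 0 genes, which says little for lists of 5 genes each. In SW1736 CITED2 read 0.65 ± 0.16 (adjusted p = 0.161), a difference of -0.17 from SKMEL28 (95% interval -0.65 to 0.31). EFNA1 read 0.52 and NFKBIA 0.24 there, and neither passed. ID2 and WDR72 were mostly or wholly undetected on those arrays. In SW1736, DUSP6 fell by 1.77 ± 0.21 (adjusted p = 6.62e-05), SPRY2 fell by 1.43 ± 0.16 (6.37e-05), MYC fell by 1.31 (6.62e-05) and PHLDA1 fell by 1.34 (6.37e-05). SPRY4 was detected there at 0 h and not at 1 h, so that it was at least 2.13-fold lower. The probe of PDE4B behaved likewise, at least 1.55-fold lower, although another PDE4B probe was detected on 1 treated array. Of the 24 SKMEL28 genes, FOS, CCDC144A and WDR72 were not detected on any SW1736 array at 0 h or 1 h. With the SW1736 arrays of 0 h and 1 h fitted on their own, limma called 0 genes (721 at an unadjusted p under 0.05), so its list rests on a spread shared with the other groups.

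**Figure D5:**
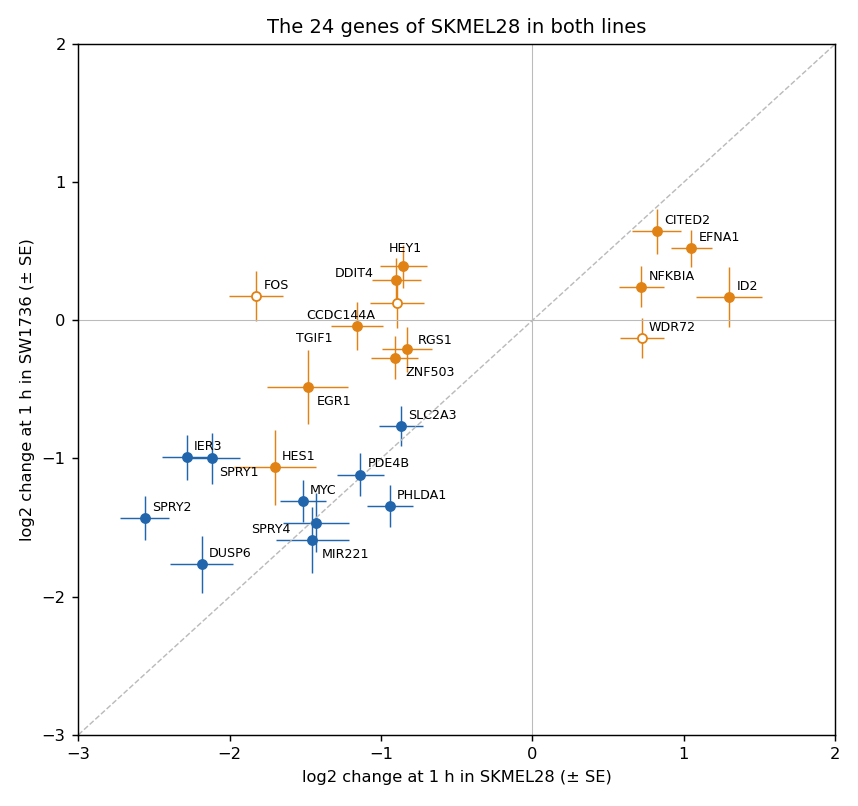
Log2 change at 1 h in SKMEL28 (x axis) against SW1736 (y axis) for the 24 genes called in SKMEL28, with bars for the standard error of the fit and a dashed line of equal change; the 10 genes called in both lines are blue, the others orange, and open circles mark the 3 genes not detected in SW1736. MYC and SLC2A3 lie near the dashed line and IER3 and SPRY2 above it, while probes undetected in 1 group (MIR221 in SKMEL28, SPRY4 and PDE4B in SW1736, at 1 h) or on both sides (the open circles) are drawn at their measured signal, so their place is not a measured change.

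The difference between the lines in the 1 h change was tested for each gene as SW1736 minus SKMEL28. It passed for 3 genes (0.0219%), FOS, HEY1 and HAS2, with 607 at an unadjusted p under 0.05. The 607 are a share below 0.05 of the genes tested. FOS had a difference of 2.00 ± 0.26 (adjusted p = 0.00109), and its probe was undetected in SW1736 at both times, so no measured level stands behind its change there. HEY1 had a difference of 1.24 ± 0.22 (adjusted p = 0.0437) and was detected in SW1736 on 0 arrays at 0 h and on 1 at 1 h. HAS2 read 0.50 in SKMEL28 and -0.78 ± 0.14 in SW1736 (adjusted p = 0.0154 there), where it was detected on 3 arrays at 0 h and on 1 at 1 h, a difference of -1.28 ± 0.20 (adjusted p = 0.0171). A second HAS2 probe, detected on 3 of the 6 SKMEL28 arrays, read -0.20 in SKMEL28. Leaving out 1 array ended the HEY1 difference in 10 of 12 fits (adjusted p 0.0932 to 0.17) and the HAS2 difference in 7 of 12 (0.0567 to 0.0992). Neither passed with median scaling (adjusted p = 0.162 for HEY1 and 0.125 for HAS2), with only the arrays compared (0.216 and 0.161), with the replicate block (0.0848 and 0.0785) or with the mean of a gene's probes, where HEY1 read 1.02 (0.242) and HAS2 read -0.54 (0.899). HEY1 also missed with a trended and robust prior (0.0512).

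Among the genes called in both lines the differences ran from near 0 to over 1. MYC (0.21, 95% interval -0.24 to 0.66), SLC2A3 (0.10, -0.33 to 0.53), DUSP6 (0.42, -0.19 to 1.03) and PHLDA1 (-0.40, -0.84 to 0.05) gave intervals that include 0. For MIR221, PDE4B and SPRY4 the probe was undetected on all 1 h arrays of 1 line, so only bounds on the falls are known and the size of the difference was not measured. SPRY2 (1.13, 0.66 to 1.60), SPRY1 (1.12, 0.58 to 1.66) and IER3 (1.29, 0.80 to 1.78) gave intervals above 0, toward a larger fall in SKMEL28, yet with all genes tested their adjusted p-values were 0.125, 0.289 and 0.0535. TGIF1, which fell in SKMEL28, read -0.04 ± 0.17 in SW1736, a difference of 1.12 (0.61 to 1.62, adjusted p = 0.242). EGR1 read -0.48 ± 0.27 in SW1736 (adjusted p = 0.66; difference 1.00, 0.21 to 1.79, adjusted p = 1) and HES1 read -1.06 ± 0.27 (adjusted p = 0.161; difference 0.64, -0.15 to 1.42). EFNA1 read 0.52 ± 0.13 there (adjusted p = 0.177; difference -0.53, -0.92 to -0.13, adjusted p = 0.918), and ID2 was detected on 1 of 3 SW1736 arrays at each time. DDIT4 was detected on every 0 h and 1 h array of both lines. It read -0.90 in SKMEL28 and 0.29 ± 0.16 in SW1736 (adjusted p = 0.665). The difference was 1.19 (0.71 to 1.67, adjusted p = 0.0883). TGIF1, EGR1, HES1, EFNA1, ID2 and DDIT4 thus passed in SKMEL28 and not in SW1736, and the test of the difference did not pass for them.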

How the data were processed

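Total RNA of 24 samples was measured on Illumina bead arrays, after labelling with biotin in an Ambion MessageAmp reaction, per the labels' protocols. The raw table that the authors deposited holds linear, positive intensity values per probe, with medians that differ between arrays, and, per the file headers, a detection p-value beside each. The authors' value table, which was used as an alternative, holds values that from their distribution are log2, quantile normalized and not centred; its scale is not stated. Partek is named in the submitters' processing notes, without a version. The background treatment by the scanner software is not given in the sources used here.

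Starting from the raw intensities, limma's normexp model was applied with the detection p-values (offset 16), followed by quantile normalization and log2. The offset damps the changes of dim probes, while background correction enlarges them. With it FOS read -1.83 and WDR72 0.72, and without background correction they read -0.87 and 0.26. Of 47231 probes, 26673 with a detection p under 0.05 on at least 3 of 24 arrays were kept. The platform annotation gives 1 gene symbol for 30113 probes (30074 matched to a current gene), several for 8 and none for 17110. The probe of highest mean stood for each of 13699 genes. The 8 group means were fitted together in limma 3.58.1 (R 4.3.3; 16 residual and 6.34 prior degrees of freedom), with Benjamini-Hochberg adjustment within each of 6 comparisons at 0.05. The code was tested on simulated data.

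The genes named were those called at 1 h, those called with SKMEL28 alone, the leading members of each list, a fixed set of pathway genes, genes called in the difference between lines, and the leading probes without a symbol. The members and the gene lists were chosen with earlier results of these data known. Figures were drawn with matplotlib 3.10.9. Alternatives covered background correction, scaling, the authors' values, filters, probe choice, the arrays fitted, variance prior, array weights, replicate blocks, thresholds and leaving out each array.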

Additional observations from a re-analysis of the deposited data

Results flagged for a closer look

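The change at 1 h differed between the lines, by the test of that difference, for 3 genes (SW1736 minus SKMEL28): FOS at 2.00, HEY1 at 1.24 and HAS2 at -1.28. These are fitted differences: in SW1736 the FOS probe was detected on 0 arrays at 0 h and 1 h, HEY1 on 0 and 1, and HAS2 on 3 and 1. The HEY1 difference was lost in 10 of 12 fits without 1 array and the HAS2 difference in 7 of 12.

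The comparison of genes did not use 7777 probes to which the platform annotation gives no single gene symbol. With 26673 probes tested singly, 5 of these 7777 passed limma's test at 1 h (0.0643% of the 7777, with 302 at an unadjusted p under 0.05). The 302 are a share below 0.05 of the 7777. All 5 were lower in treated SKMEL28 cells. Over all 26673 probes 30 passed (0.112%), of which 28 were lower. Probe ILMN_1651610 read 9.78, 9.22 and 9.56 on the untreated and 7.31, 7.45 and 7.41 on the treated arrays (-2.14 ± 0.26, adjusted p = 0.000114), and -0.60 in SW1736. Probe ILMN_1855278 changed by -1.50 ± 0.18 (adjusted p = 6.44e-05), and by -1.36 in SW1736. Probe ILMN_3298716 changed by -1.17 ± 0.19 (adjusted p = 0.00551). Probe ILMN_3274045 gave -1.13 ± 0.22 (adjusted p = 0.0282) and probe ILMN_1715747, detected on all 3 untreated and on 0 treated arrays, gave a measured -0.82 ± 0.16 (adjusted p = 0.0313); these last 2 were named after their values were seen. Their genes were not looked up here.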

How the results depend on the processing

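Of the 24 genes called at 1 h, 10 kept the call under every alternative in which they were tested, 20 in number: SPRY2, IER3, DUSP6, SPRY1, HES1, MYC, SPRY4, TGIF1 and PDE4B, and FOS, which the stricter filter did not test. Their sizes moved more than their calls: FOS went from -1.83 to -0.87 and HES1 from -1.70 to -1.0 without background correction, SPRY4 from -1.43 to -0.82 and TGIF1 from -1.16 to -0.63 with the mean of a gene's probes. No called value changed sign. The count at 1 h was 14 with median scaling, 14 with a change of at least 1 on the log2 scale and 70 with array weights, and 11 to 19 without 1 array; it was 11 without untreated replicate 1 and 15 without treated replicate 1. In SW1736 it was 29, but 19 with median scaling, 4 with the line fitted alone, 0 with only its 6 arrays, 9 with array weights, 8 at an adjusted p under 0.01, 14 with a change of at least 1, and 12 to 26 without 1 array (12 without 0 h replicate 1, 15 without 0 h replicate 2 and 19 without 0 h replicate 3).

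The difference between the lines had 3 calls. It had 11 without background correction, 12 with the authors' values, 5 with the mean of a gene's probes, 5 with a trended and robust prior, 6 with array weights, and 1 with median scaling, with only the arrays compared or at an adjusted p under 0.01. Without 1 array it had 1 to 5: 1 without SKMEL28 0 h replicate 1, 2 or 3, SKMEL28 1 h replicate 3, SW1736 0 h replicate 1 or SW1736 1 h replicate 1, and 5 without SW1736 1 h replicate 3. With SKMEL28 alone the counts rose to 1832 at 6 h (938 reported) and 1631 for 6 h against 1 h (796), and with array weights to 2053 and 1708. At an adjusted p under 0.01 they were 592 and 468, and with a change of at least 1 they were 325 and 247, and 2055 at 48 h (5328). Without 1 array they ran from 687 to 754 at 6 h, 4627 to 4696 at 48 h and 568 to 600 for 6 h against 1 h. Median scaling moved the median of all genes by -0.13 at 6 h and turned the split of higher and lower calls from 360 and 578 to 159 and 723 at 6 h, from 2746 and 2582 to 1856 and 2724 at 48 h, and from 311 and 485 to 113 and 708 for 6 h against 1 h. The causes were not tested.

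Samples with the same replicate number did not deviate together (correlations of 0.05, 0.00 and 0.06 between 0 h and 1 h), so the numbers were not taken as pairs. With the replicate block 23 genes passed at 1 h, NFKBIA being lost (adjusted p = 0.0507), and 1 in the difference between the lines. Dim probes limit what can be seen: MIR221 and CCDC144A have only a bound at 1 h.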
